A study of Mus musculus with 20 samples.

Results

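Expression of 10 genes of the methionine cycle, of methyl transfer and of folate metabolism was described in male and female mouse liver. The genes are Mat1a, Ahcy, Bhmt, Bhmt2, Cbs, Gnmt, Pemt, Nnmt, Inmt and Aldh1l1, chosen by their symbols. All 10 were found, each on a single row, among the 56884 genes listed for males and the 18149 listed for females. The RNA-seq samples comprised 3 WT and 3 Midn-T livers of each sex, from mice aged 11–14 weeks. WT livers carried the Midn XTR allele, a gene-trap cassette that leaves the gene intact until Cre acts. In Midn-T livers, Cre driven by the Albumin promoter had inverted the cassette, so that transcription stops after exon 2 of Midn. The study describes this inactivation as selective for hepatocytes, and the allele in other liver cells was not examined here. Whether the WT mice carried Cre is not given in the sources used here. The value used for each gene and sex is the authors' mean normalized count, which averages all 6 samples of that sex, WT and Midn-T together. The tables also hold the authors' own comparison of Midn-T with WT, including its fold changes and standard errors, and these columns were not used. Midn-T was therefore not compared with WT here, and the means are given without an error. The tables list no value per mouse and no library depth.

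Methionine is activated to S-adenosylmethionine, the methyl donor of most cellular methylation reactions. After the methyl group has been transferred, the product is hydrolysed to homocysteine, which is either methylated again to methionine or passed on toward cysteine. Liver carries out much of the body's methionine metabolism and uses betaine as well as folate for the remethylation.

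The samples were checked against genes with known expression. Over all genes, the sum of the means was 30278021 for males and 30759671 for females, and the 10 genes held 0.847% and 0.998% of it. Alb, which encodes serum albumin, was the highest protein-coding gene per kilobase in both sexes. All 10 hepatocyte markers were listed in both sexes, with summed levels of 117498 and 131873 ppm. This unit is the mean per kilobase of merged exons, scaled so that the protein-coding genes of a table sum to 1000000. The 10 Kupffer and leukocyte markers summed to 559 and 584 ppm, with Clec4f at 101 and 117 ppm. The 10 stellate and endothelial markers summed to 288 and 351 ppm, with Stab2 at 72.7 and 86.0 ppm and Lrat at 25.9 and 37.2 ppm. The 6 bile duct markers summed to 52.3 and 60.5 ppm, with Krt19 at 1.60 and 3.12 ppm. Of the 5 kidney markers, 4 were listed at 0 in males, Umod had a mean normalized count of 1.19, and none was listed in females. The lowest mean listed was 0 in males but 6.61 in females. A gene not listed in females may therefore be low and not absent, and the kidney markers are no separate check there. Xist, the RNA that coats the inactive X chromosome, had a mean normalized count of 14.0 in males and 72478 in females. The Y-linked Ddx3y, Eif2s3y, Kdm5d and Uty had means of 964 to 3147 in males and were not listed in females, where the same floor applies. Midn itself, counted over all exons, had means of 1672 and 1357, which pool both genotypes and so do not check the genotype labels. In whole liver, fewer cells of a type and less RNA per cell cannot be told apart.

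Per kilobase of merged exons, Mat1a had the highest level of the 10 genes and Nnmt the lowest in both sexes. The 10 genes had a median level of 959 ppm in males and 1085 ppm in females. The median over protein-coding genes with a mean above 0 was 6.59 and 10.9 ppm, respectively. The male median rests on more genes of low expression, since 16631 such genes were listed in males and 13621 in females. Among protein-coding genes, 4 of the 10 were within the 100 highest in males and 5 in females, and 7 were within the 500 highest in both sexes. The counts within the 100 highest rest on genes near that limit, with Inmt 101st in males and 86th in females and Bhmt 99th in males. They also depended on gene length. Inmt was 97th in males with the longest transcript, and Ahcy was 103rd and 115th with the canonical transcript. The highest and lowest of the 10 differed 27.3-fold in males and 45.2-fold in females. This range depended on gene length, at 18.1-fold and 15.5-fold with canonical transcripts, and with these the range was no longer wider in females.

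**Figure D1:**
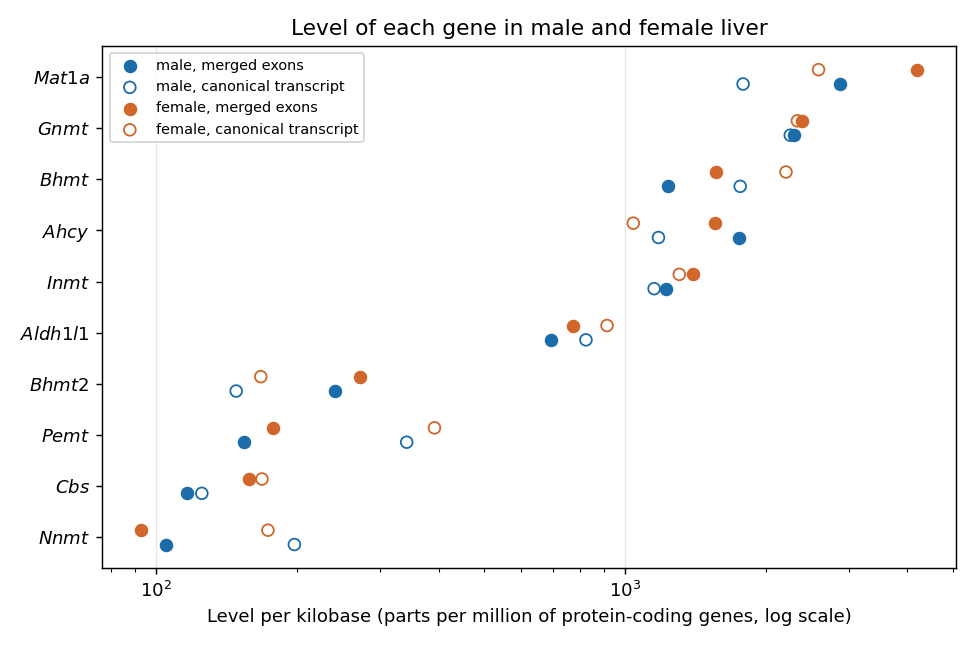
Level of each gene per kilobase, in ppm of the protein-coding sum on a log axis, in male (blue) and female (orange) liver; filled circles use merged exon length and open circles the canonical transcript, and each circle is a mean over WT and Midn-T samples with no error. Mat1a reached 2872 and 4189 ppm with merged exons, and Nnmt stood at 105 and 92.8 ppm.

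Mat1a encodes the liver form of methionine adenosyltransferase, which makes S-adenosylmethionine. It lies on chromosome 14 of GRCm39 from 40826926 to 40846384 and has 9 exons in its canonical transcript. Its mean normalized count was 72381 in males and 104428 in females, and its level per kilobase was 2872 and 4189 ppm. It ranked 48th and 31st among protein-coding genes, and with the canonical transcript length 73rd and 47th.

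Ahcy encodes adenosylhomocysteinase, which hydrolyses the product of methyl transfer to homocysteine and adenosine (chromosome 2, 154901230 to 154916422). Its mean normalized count was 34044 in males and 29951 in females. At 1751 and 1557 ppm, its level per kilobase was below that of Mat1a in both sexes.

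Bhmt and Bhmt2 encode methyltransferases that remethylate homocysteine, Bhmt from betaine and Bhmt2 from S-methylmethionine. They lie next to each other on the minus strand of chromosome 13, Bhmt from 93753183 to 93774469 and Bhmt2 from 93792228 to 93811228. Bhmt had a mean normalized count of 49702 in males and 61988 in females, and Bhmt2 of 4844 and 5447. Per kilobase, the level of Bhmt was 5.16 times that of Bhmt2 in males and 5.72 times in females. The size of this difference depended on the length assigned to the genes, because Bhmt has 6039 nt of merged exons and a canonical transcript of 2490 nt. With canonical transcripts it was 11.9-fold and 13.2-fold.

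The coding sequences of the pair were aligned, since the division of reads between related genes rests on the bases at which they differ. The most similar 60 bases within a single exon are shown 5′ to 3′ with the base that differs in capitals. They lie at chr13:93756690-93756749 in Bhmt and chr13:93798910-93798969 in Bhmt2 (GRCm39, minus strand).
Bhmt: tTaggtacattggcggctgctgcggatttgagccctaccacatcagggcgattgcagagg
Bhmt2: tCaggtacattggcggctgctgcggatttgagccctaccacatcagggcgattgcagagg
The longest run of identical bases in the alignment was 59, of which 58 follow the capital and 1 lies past the stretch shown. It was shorter than a read of 150 nt. Among the 43 pairs of the 10 genes other than Bhmt with Bhmt2 and Nnmt with Inmt, the longest run was 12.

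Cbs encodes cystathionine beta-synthase, which commits homocysteine to the transsulfuration route toward cysteine (chromosome 17, 31827868 to 31856646). Its mean normalized count was 8788 in males and 11780 in females. Per kilobase it was among the low genes of the group, at 116 and 158 ppm. It had the longest merged exons of the 10 genes, 11331 nt.

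Of the 4 methyltransferases that act on substrates other than homocysteine, Gnmt had the highest level. Gnmt encodes glycine N-methyltransferase, an abundant liver enzyme that consumes excess S-adenosylmethionine (chromosome 17, 47036587 to 47040107). Its mean normalized count was 26838 in males and 27673 in females. Its level was 2289 and 2387 ppm, the second of the 10 in both sexes. Pemt encodes phosphatidylethanolamine N-methyltransferase, which makes phosphatidylcholine (chromosome 11, 59861440 to 59950424). Its mean normalized count was 3888 in males and 4437 in females, and its level 154 and 177 ppm. The level of Gnmt was 14.9 times that of Pemt in males and 13.5 times in females with merged exons. With the longest transcripts it was 4.97 and 4.50 times that of Pemt, and with canonical transcripts 6.59 and 5.95 times.

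Nnmt and Inmt encode related enzymes that methylate small molecules, Nnmt nicotinamide and Inmt indoleamines such as tryptamine. Nnmt lies on chromosome 9 from 48448913 to 48518959 and had a mean normalized count of 2345 in males and 2044 in females. Inmt lies on chromosome 6 from 55147606 to 55152028 and had 14154 and 15943. The level of Inmt per kilobase, 1225 and 1396 ppm, was 11.6 times that of Nnmt in males and 15.0 times in females. With canonical transcripts it was 5.85 and 7.56 times as high.

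Both have coding sequences of 792 nt in 3 exons, without the stop codon. The most similar 60 bases within a single exon, given to show how the pair differs, hold 8 differences, in capitals. They lie at chr9:48514692-48514751 in Nnmt and chr6:55150309-55150368 in Inmt, both on the minus strand of GRCm39 and printed 5′ to 3′.
Nnmt: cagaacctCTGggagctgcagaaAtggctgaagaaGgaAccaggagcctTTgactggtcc
Inmt: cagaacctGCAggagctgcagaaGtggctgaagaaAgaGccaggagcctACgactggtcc
The longest run of identical bases in their alignment was 17, so a read of 150 nt from one coding sequence differs from the other.

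Aldh1l1 encodes formyltetrahydrofolate dehydrogenase, which removes one-carbon units from the folate pool (chromosome 6, 90463409 to 90577185). Its mean normalized count was 39323 in males and 43444 in females. The level of 694 and 775 ppm placed it 167th and 155th among protein-coding genes. Its canonical transcript has 23 exons, the most of the 10 genes.

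Female and male levels were then set side by side. The tables were normalized separately by the authors, so the female-to-male ratio of means was divided by its median over 10793 genes. This ratio compares 1 pooled value with another, was not tested, and mixes the effect of sex with any difference between WT and Midn-T in either sex. None of the 10 genes was at least 1.5-fold apart in either direction. Of the 10793 genes, 7.33% were that far apart, and 4.39% were that much higher in females. The ratio was above 1 for 8 of the 10 genes and below 1 for 2, with a median of 1.12. The middle 50% of all genes lay between 0.901 and 1.13.

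Mat1a had the highest ratio, 1.44, above that of 94.2% of all genes. For Cbs the ratio was 1.33, at percentile 91.0, and for Bhmt 1.24, at percentile 86.1. Pemt, Bhmt2, Inmt and Aldh1l1 lay between 1.10 and 1.14. Gnmt was close to equal in the pooled means, with a ratio of 1.03. Ahcy and Nnmt had ratios of 0.875 and 0.867, at percentiles 20.2 and 18.7. The synthase Mat1a and the hydrolase Ahcy, which act before and after methyl transfer, stood on opposite sides of the median. This difference was not tested, and neither gene was 1.5-fold apart between the sexes.

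**Figure D2:**
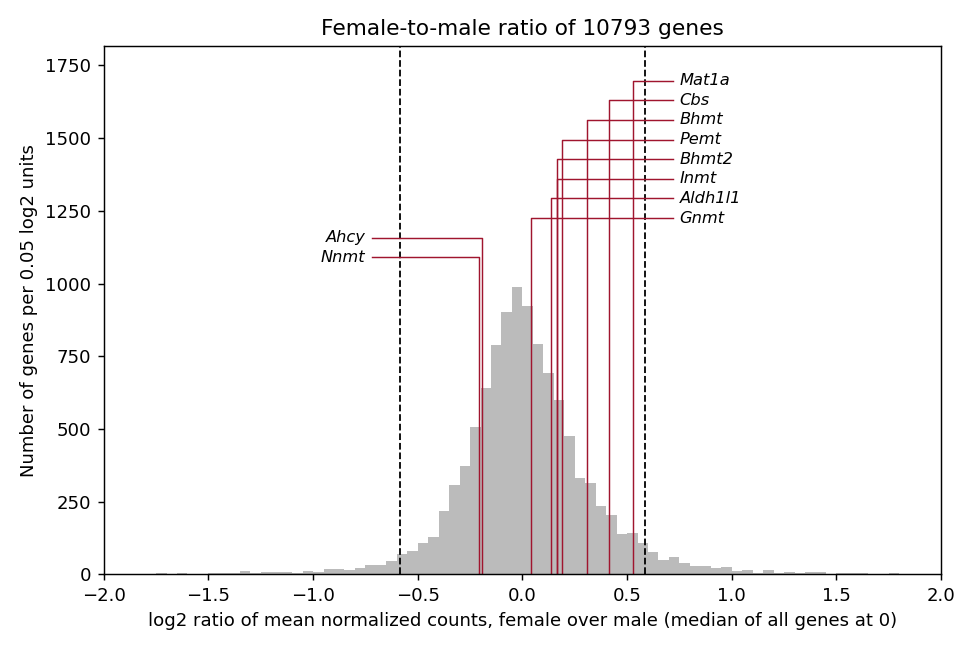
Distribution of the log2 female-to-male ratio of mean normalized counts over 10793 genes (grey bars, genes per 0.05 log2 units; 46 genes beyond the axis are not drawn), with the 10 genes as red lines and a 1.5-fold ratio as dashed lines. Mat1a at 0.52 is nearest to a dashed line, and Ahcy and Nnmt lie below 0 at -0.19 and -0.21.

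The 10 genes were read beside 46 other genes of one-carbon metabolism, grouped into 5 lists. All 46 were listed in both sexes, and 42 had a mean of at least 100 in both. Of these 42, Mthfs was at least 1.5-fold higher in females and Csad at least 1.5-fold higher in males. Over all 10793 genes the share that far apart was 7.33%, and the count here was not tested against it. The median ratio of the 42 genes was 1.02. Aldh1l2, Mthfd1l, Mthfd2 and Mthfd2l, named after their values were seen, had a mean under 100 in at least 1 sex. Their male levels ran from 0.313 to 2.29 ppm. Mthfd1l had the most unequal means of the 4, 177 in males and 51.8 in females.

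Csad encodes the decarboxylase that leads from cysteine to taurine. It had a mean normalized count of 7349 in males and 1929 in females, a ratio of 0.261. It was in the list of 7 transsulfuration and cysteine genes, whose median ratio was 1.07. Cdo1, the cysteine dioxygenase that acts before Csad, had the highest level in this list, 830 ppm in males and 1120 ppm in females, with a ratio of 1.33. Cbs, which feeds this route, also had a ratio of 1.33. Apart from Csad, the genes of the list ranged from 0.690 to 1.35, and no common pattern along the route was tested.

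The 21 folate and glycine genes had a median ratio of 1.09 over the 17 with sufficient means. Mthfs, which returns formyltetrahydrofolate to the active folate pool, had means of 199 in males and 415 in females, a ratio of 2.08. Ftcd, a folate enzyme of histidine breakdown, had the highest level in the list at 392 and 396 ppm. Aldh1l1 was above it in both sexes.

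Among the 7 other methionine cycle genes, Mat2a had the highest level. Mat2a encodes another form of methionine adenosyltransferase, and its 101 and 91.1 ppm in these livers compare with 2872 and 4189 ppm for Mat1a. The median ratio of this list was 0.887, whereas that of the 5 methionine cycle genes among the 10 was 1.24. In the list of 5 betaine genes the highest level was that of Sardh, sarcosine dehydrogenase, at 673 and 757 ppm, and the median ratio was 1.11. The median ratio of the 6 other small-molecule methyltransferases was 0.881, and that of Gnmt, Pemt, Nnmt and Inmt was 1.07. The medians of these lists were not tested against each other.

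**Figure D3:**
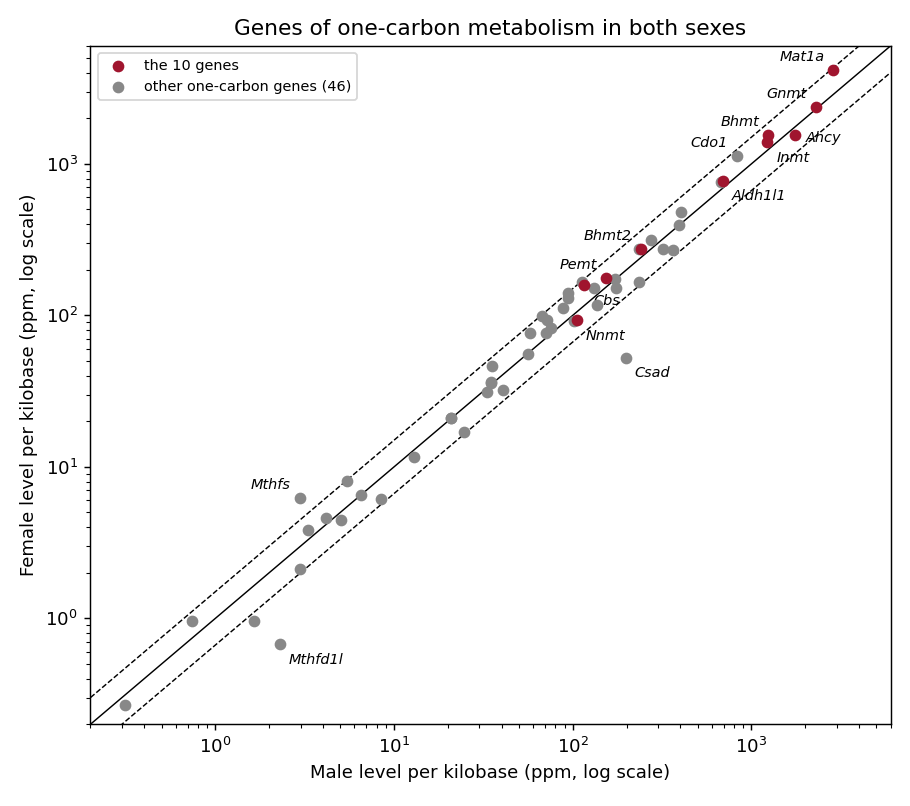
Level per kilobase in males (horizontal) and females (vertical), in ppm on log axes, for the 10 genes (red) and 46 other one-carbon genes (grey); the solid line marks equal levels and the dashed lines a 1.5-fold difference in ppm. The 10 red points lie within the dashed lines, and Csad (198 and 52.6 ppm), Mthfs (2.96 and 6.25 ppm), Mthfd1l (2.29 and 0.677 ppm) and Mthfd2 (1.64 and 0.966 ppm) lie outside.

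Because only uniquely mapped reads had been counted, the exons of each gene were searched for 50-nt words that also occur elsewhere in GRCm39. Mat1a, Gnmt and Inmt had no such word among 3345, 1565 and 1539. Pemt and Aldh1l1 had 0.106% and 0.211%, Nnmt 3.51% and Cbs 4.23%. In Ahcy, 62.4% of the 2382 words recurred. Most of these, 60.7% of all words, also lie in Ahcyl on chromosome 16, and 27.1% lie in the processed pseudogene Gm9826 on chromosome 1. Ahcyl had mean normalized counts of 212 and 195 and Gm9826 of 184 and 150, in males and females, against 34044 and 29951 for Ahcy. In Bhmt, 23.4% of the 5647 words recurred, of which Bhmt1b held 19.4% of all words and the pseudogene Bhmt-ps1 10.9%. Bhmt1b had mean normalized counts of 333 and 456, and Bhmt-ps1 of 43.5 and 54.4. In Bhmt2, 12.6% of words recurred, and 12.2% of all words had a copy outside annotated exons. A read pair can still be placed by other bases, so these shares do not give the reads lost, and the levels of Ahcy and Bhmt are uncertain to an extent that was not tested. The copies and overlapping genes were named after their values were seen.

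**Figure D4:**
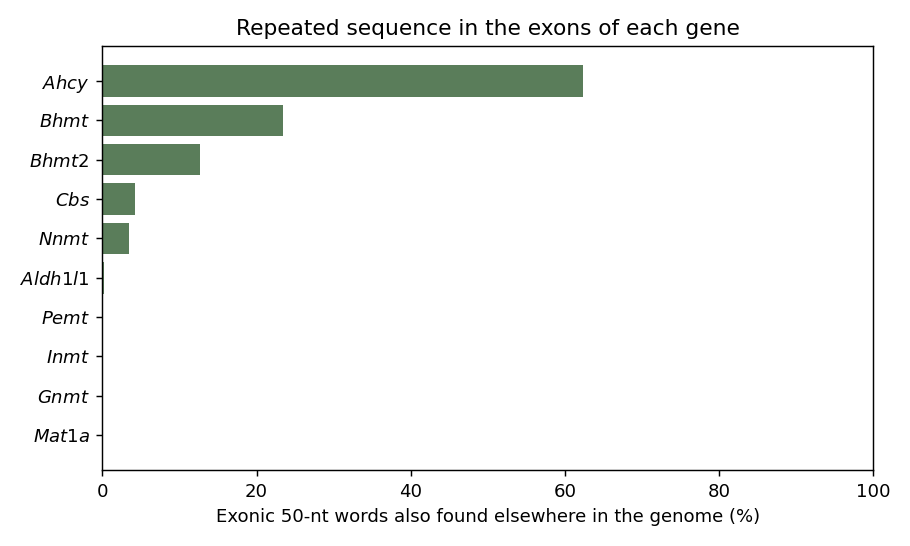
Share of the exonic 50-nt words of each gene that also occur elsewhere in the genome, in percent. Ahcy stands at 62.4%, Bhmt at 23.4% and Bhmt2 at 12.6%, and the other 7 genes lie at or below 4.23%.

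Exons of annotated genes on the opposite strand overlap those of 4 of the 10 genes. Bhmt2 shares 295 nt with Dmgdh, which had mean normalized counts of 12728 and 14913, and Gnmt shares 297 nt with Pex6, which had 1985 and 2017. Counting was strand-specific, and the share of reads assigned across these overlaps was not tested. Aldh1l1 also shares 105 nt with Gm45901, a long noncoding RNA gene on its own strand with a mean of 6.68 in males and not listed in females, which strand-specific counting does not separate. On the opposite strand, Aldh1l1 and Bhmt overlap long noncoding RNA genes with means under 100, and Gnmt overlaps one that is not listed in either table.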

How the data were processed

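Whole-liver RNA-seq (rRNA-depleted, strand-marked, paired-end reads of 150 nt) was used as 1 result table a sex. Per the study's methods, the authors mapped with STAR (2.7 in the submitters' processing notes) to GRCm39, counted reads of unique position and reverse strand with HTSeq on Ensembl genes, and compared genotypes within each sex in DESeq2. The signal used here is the mean normalized count deposited by the authors, averaged over the 6 samples of a sex after division by size factors, which pools genotypes and carries no error. The other columns hold the authors' fold changes, standard errors, statistics and p-values for Midn-T against WT. They were not used, nor were the ATAC-seq peak lists, which the authors selected by the same comparison. The titles of 5 of the 8 ATAC-seq samples contradict their library names.

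Tables were joined on the Ensembl identifier, and 56323 of 56884 genes were found in GENCODE mouse release M39, which gave positions and merged exon lengths. The authors counted on another annotation, so the exons counted and the exon lengths used here can differ. The effect on the levels per kilobase was not tested. Levels per kilobase were scaled to a protein-coding sum of 1000000 (ppm). Female-to-male ratios were divided by their median (1.00) over the 10793 genes with a mean of at least 100 in both tables, and a ratio of 1.5 either way was counted. The scaling was tested on simulated data that held counting noise and no spread between mice. No test was run on the data, because each gene has 1 value a sex. Exonic 50-nt words were searched on both strands of GRCm39. Coding sequences were aligned globally (match 2, mismatch -1, gap opening -5, gap extension -1), in place of a planned alignment of proteins, which was not made. Python 3.11.15, numpy 2.4.6, pandas 2.3.3, numba 0.67.0, Biopython 1.88 and matplotlib 3.10.9 were used.

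The 10 genes, the other lists and the rule for named genes were chosen with earlier results of these data known. The rule takes the 10 genes, any gene of the other one-carbon lists past 1.5 fold, the highest level in each of those lists, a few defining markers, and Midn, Xist and the Y-linked genes as checks. One result under this rule is not reported here. Alternatives were other scalings, minimum means and gene lengths, a fold of 2, and protein-coding genes alone.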

Additional observations from a re-analysis of the deposited data

How the results depend on the processing

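The means carry no spread between mice, and the authors' standard errors were not used. A ratio was therefore counted as changed when it moved by over 10%, and a rank when it moved by over 1.5 times. Each of 3 other scalings divided all ratios by 1 common factor, with factors from 0.990 to 1.02. The 30 female-to-male ratios of the 10 genes therefore moved together and stayed within 10%. With these scalings 0 of the 10 genes passed the fold. The remaining alternatives of the 7 could not bring any of them past it. They left the ratios unchanged or, with a fold of 2, raised the threshold. The share of all genes past the fold was 12.2% with a minimum mean of 10 and 2.05% with a fold of 2. The other alternatives, of which the minimum mean of 1000 was added after seeing the data, gave 5.32% to 7.48%. In each sex, 5 of 20 ranks moved by over 1.5 times with the longest or the canonical transcript, and 8 of 10 with no division by length. The canonical transcript length was also added after seeing the data. With it, Gnmt (2251 ppm) stood above Mat1a (1785 ppm) in males, and Cbs in males and Bhmt2 in females had the lowest level of the 10 genes. The lowest 4 genes were Bhmt2, Pemt, Cbs and Nnmt with merged exons, longest transcripts and canonical transcripts, in both sexes. No paired analysis was possible because the deposited means pool all samples of a sex and no test was run. The unknown depth limits every value.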
